A study of Saccharomyces cerevisiae with 3 samples.

Results

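The 9 lysine synthesis genes of baker's yeast, LYS1, LYS2, LYS4, LYS5, LYS9, LYS12, LYS14, LYS20 and LYS21, were examined in cells treated with the fungicide fluazinam. They were taken by gene symbol from the 5203 genes named on the array, and each had 1 probe and a value on all 3 arrays. Each array held Cy5-labelled cDNA of Saccharomyces cerevisiae S288C that had been exposed to 1.5 uM fluazinam for 2 h and Cy3-labelled cDNA of the same strain grown for 2 h without treatment. Cultures of 100 ml were grown in the rich glucose medium YPD at 25 C and were in exponential growth when the compound was added. Fluazinam, a weakly acidic dinitroaniline, carries protons across the mitochondrial inner membrane and so uncouples respiration from ATP synthesis. The design text describes the arrays as independent biological samples, and the sources used here do not say if the untreated cells were also cultured separately for each. Dyes were not swapped, so a dye effect of a gene and the treatment cannot be told apart.

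Yeast makes lysine through the 2-aminoadipate pathway, which fungi use in place of the diaminopimelate pathway of bacteria and plants. Its first part joins acetyl-CoA to 2-oxoglutarate and lengthens it to 2-oxoadipate, and its second part reduces 2-aminoadipate and passes through saccharopine to lysine. The genes are activated by Lys14, which responds to the intermediate 2-aminoadipate semialdehyde, and by Gcn4, the general activator of amino acid synthesis.

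Values are log2 ratios of treated over untreated RNA within an array. The base and the direction were not stated in the sources used here. The direction is likely rather than settled, and turning it would turn every sign below without changing which arrays opposed each other. Folds hold for a base of 2, as the values were read, and would be larger with a natural log. A ratio does not show whether the treated or the untreated RNA of an array was unusual.

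The question was whether fluazinam changed the transcripts of lysine synthesis after 2 h. The 3 arrays did not run the same way. On replicate 2 all 9 genes were above 0 (46.4% of all features), with a median log2 ratio of 1.73 and a range from 0.28 to 3.29. On replicate 1 the median was -1.08, from -2.02 to 0.73, and on replicate 3 it was -0.27, from -1.41 to 0.31. On replicate 1, 3 of the 9 were above 0 (51.9% of all features), and on replicate 3 also 3 (48.5%). All features here are the 3802 with a value on every array, and their medians were 0.05, -0.07 and -0.03 on replicates 1 to 3.

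Averaged over the arrays, 0 of the 9 genes passed the test of the mean against 0 (limma with Benjamini-Hochberg adjustment over all features, adjusted p under 0.05). Of all features, 3.39% passed as higher and 4.47% as lower. At an unadjusted p under 0.05 it was 1 of the 9, LYS1, against 29.7% of all features. The median of the 9 means was 0.19, beside a median of -0.005 over all features, while the median SD across arrays was 1.48 for the lysine genes and 0.46 for all features.

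**Figure D1:**
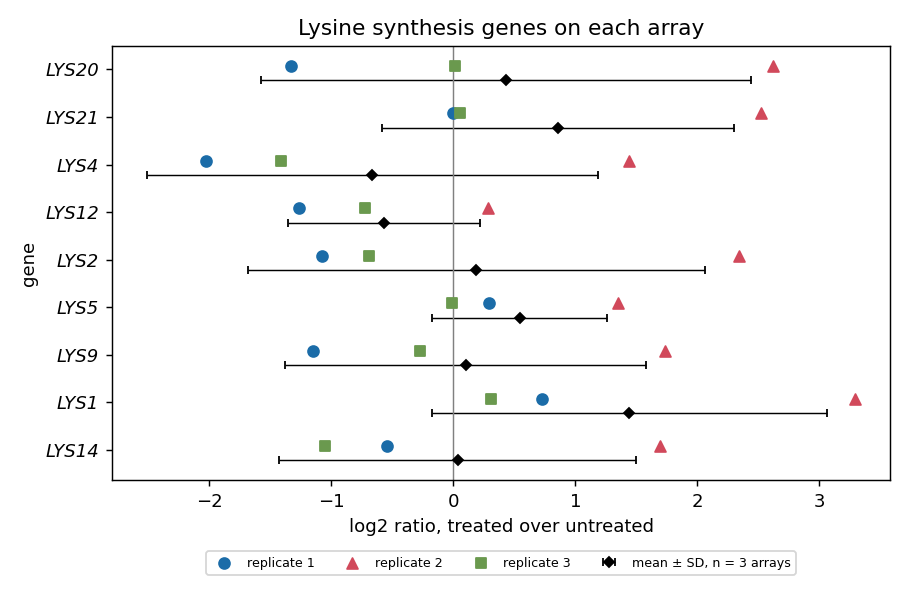
Log2 ratio of each lysine synthesis gene (rows, in pathway order with the activator gene LYS14 last) on each of the 3 arrays, with the mean and SD over the 3 arrays in black. The replicate 2 triangle lies furthest to the right for all 9 genes.

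The first step, the condensation of acetyl-CoA with 2-oxoglutarate, is catalysed by homocitrate synthase, which is encoded by 2 genes and inhibited by lysine. LYS20 (YDL182W) had log2 ratios of -1.33, 2.62 and 0.01 on replicates 1, 2 and 3. It was thus low on replicate 1, high on replicate 2 and near 0 on replicate 3, and its mean of 0.43 ± 2.01 (SD, n = 3) did not pass the test against 0 (limma adjusted p = 0.702). LYS21 (YDL131W), the other isoenzyme gene, had log2 ratios of 0.0013, 2.53 and 0.05. It stood at 0 on replicates 1 and 3 and was high on replicate 2 alone, with a mean of 0.86 ± 1.44 (limma adjusted p = 0.300).

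Compared within each array, the isoenzyme genes lay apart on replicate 1 and close together on the other arrays. The log2 ratio of LYS20 minus that of LYS21 was -1.33 on replicate 1, 0.09 on replicate 2 and -0.04 on replicate 3. The mean difference of -0.43 ± 0.79 (SD, n = 3) did not pass an exact two-sided sign-flip permutation test (p = 0.75), whose smallest possible p with 3 arrays is 0.25. Without replicate 1 the mean difference was 0.03, so its sign rested on that array. On replicate 2 the values corresponded to a 6.14-fold higher signal for LYS20 and a 5.76-fold higher signal for LYS21 in the treated channel.

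The probes lay in different places on the array. The probe numbers can be read as 32 sub-grids, a layout that was inferred and not stated. On replicate 1 the median of the sub-grid holding LYS20 was -0.54 and that of the sub-grid holding LYS21 was 0.08. The medians were 0.02 and 0.19 on replicate 2 and 0.18 and 0.52 on replicate 3. With sub-grid medians subtracted, LYS20 minus LYS21 was -0.72, 0.26 and 0.30 on replicates 1 to 3, with a mean of -0.05. The gap thus narrowed on replicate 1 and widened on the other arrays, and the part of position in it was not tested. The proteins are close homologues, and whether their probes shared signal was not tested.

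**Figure D2:**
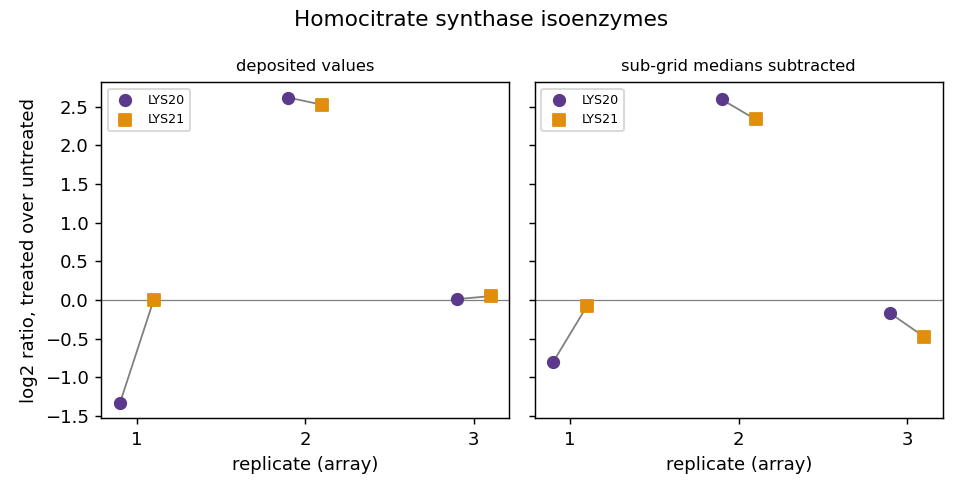
Log2 ratios of LYS20 (circles) and LYS21 (squares) on each array, as deposited on the left and with the median of the probe's sub-grid subtracted on the right; grey lines join the values of 1 array. Both genes lie above 2 on replicate 2, and the gap of -1.33 on replicate 1 narrows to -0.72 on the right.

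The next steps of the first part are homoaconitase and homoisocitrate dehydrogenase. LYS4 (YDR234W), the homoaconitase gene, had log2 ratios of -2.02, 1.44 and -1.41. It was the lowest of the 9 on replicates 1 and 3 and yet above 95.9% of all features on replicate 2. The mean was -0.66 ± 1.85 (limma adjusted p = 0.510). Without replicate 2 it became the 1 lysine gene past the threshold, at -1.72 (limma adjusted p = 0.00375), in a fit that called 9.97% of all features as lower and 7.31% as higher. That fit rests on replicates 1 and 3 alone and drops the array on which LYS4 was highest, so its mean had to fall. LYS12 (YIL094C), the homoisocitrate dehydrogenase gene, had log2 ratios of -1.26, 0.28 and -0.72. On replicate 2 it had the lowest value of the 9, and its mean was -0.57 ± 0.78 (limma adjusted p = 0.313).

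The second part starts with 2-aminoadipate reductase, encoded by LYS2 (YBR115C), an enzyme that works only after Lys5 has attached its phosphopantetheine cofactor. LYS2 had log2 ratios of -1.08, 2.34 and -0.69, a reversal on replicate 2 like that of LYS4, and a mean of 0.19 ± 1.87 (limma adjusted p = 0.866). LYS5 (YGL154C), the phosphopantetheinyl transferase gene, had log2 ratios of 0.30, 1.35 and -0.01. Its SD of 0.72 was the smallest of the 9, and the mean was 0.54 (limma adjusted p = 0.313).

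Saccharopine is then formed and cleaved by 2 dehydrogenases. LYS9 (YNR050C), which encodes the enzyme that forms saccharopine, had log2 ratios of -1.15, 1.73 and -0.27. It held the middle value of the 9 on replicates 2 and 3, and its mean was 0.10 ± 1.48 (limma adjusted p = 0.916), or -0.030 with sub-grid medians subtracted. LYS1 (YIR034C), which encodes the enzyme that releases lysine, had log2 ratios of 0.73, 3.29 and 0.31. It had the highest value of the 9 on each array. LYS1 and LYS21 were the 2 members with 1 sign on all arrays, as were 52.3% of all features. For LYS21 this rested on values of 0.0013 and 0.05. With sub-grid medians subtracted, LYS21 was at -0.07, 2.34 and -0.47, and LYS5 was above 0 on all arrays, at 0.28, 1.15 and 0.33. On replicate 2 the ratio of LYS1 was 9.80-fold. The mean of 1.44 ± 1.62 (95% confidence interval 0.14 to 2.75, unadjusted p = 0.0349, limma) did not pass after adjustment (adjusted p = 0.137), and without replicate 2 the mean was 0.52. The fit drew each gene's variance toward a value common to all features, which lowered the standard error of LYS1 to 0.55. The interval and the unadjusted p hold for that moderated fit only. With no moderation the limma adjusted p of LYS1 was 0.480.

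LYS14 (YDR034C), the gene of the pathway's own activator, had log2 ratios of -0.54, 1.70 and -1.05. Like the enzyme genes it was high on replicate 2, and its mean was 0.03 ± 1.46 (limma adjusted p = 0.971). With sub-grid medians subtracted, LYS14 was at -0.06, 1.92 and -0.47, with a mean of 0.46. The 4 genes up to 2-oxoadipate had array medians of -1.30, 1.98 and -0.35, and the 4 genes after it had -0.39, 2.04 and -0.14. Both parts of the pathway were thus high on replicate 2, and their difference was not tested.

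**Figure D3:**
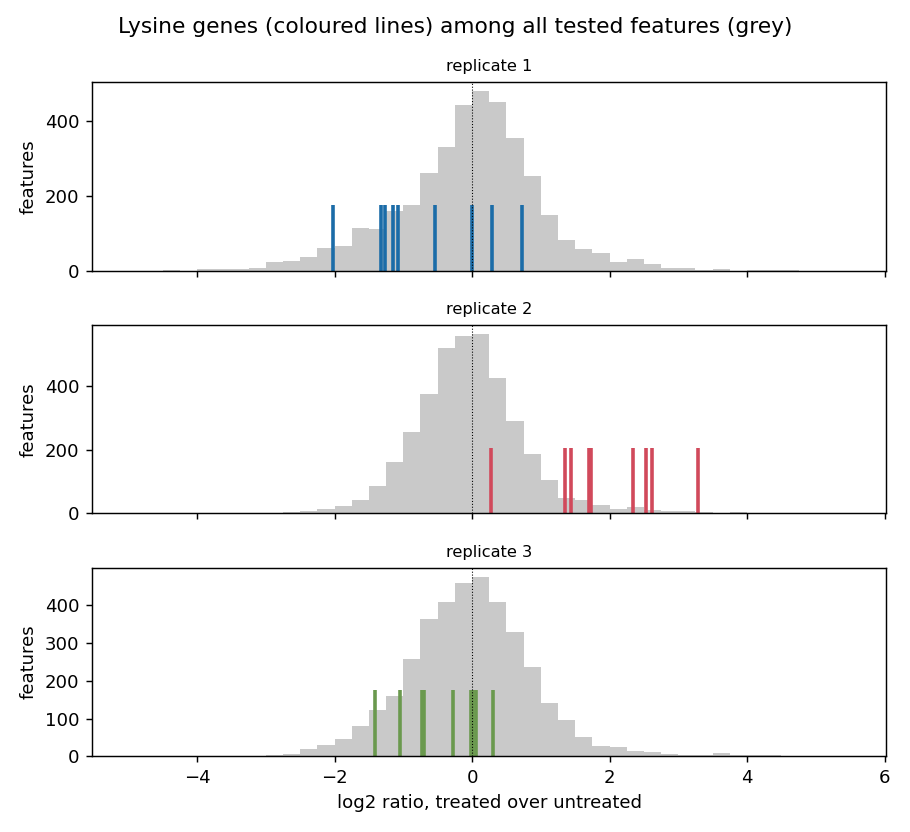
Histograms of the log2 ratios of all 3802 tested features on each array (grey, in bins of 0.25), with a coloured line at each of the 9 lysine genes. On replicate 2 all 9 lines lie to the right of 0 and 8 lie above 1, while on replicates 1 and 3 most lie to the left.

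Set against all features of the same array, the lysine genes lay far up on replicate 2. There 8 of the 9 had a log2 ratio above 1, as did 7.89% of all features, and LYS12 was the exception. The percentiles of the 9 on that array ran from 70.2 for LYS12 to 99.5 for LYS1. On replicate 1, 5 of the 9 were below -1 (16.3% of all features), and on replicate 3 it was 2 of the 9 (12.3%), LYS4 and LYS14. These counts hold for the deposited values. With sub-grid medians subtracted, LYS14 was at -0.47 on replicate 3, and LYS20 and LYS2 were at -0.79 and -0.88 on replicate 1.

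All 9 genes had their highest value on replicate 2, as did 30.7% of all features. Replicate 2 exceeded the mean of replicates 1 and 3 by more than 1 for each of the 9 (9.76% of all features), by 1.21 for LYS5 at the least and by 3.28 for LYS20 at the most. Above 0 on replicate 2 and below 0 on both other arrays were 5 of the 9, LYS2, LYS4, LYS9, LYS12 and LYS14, compared with 7.10% of all features. This count holds for the deposited values. After subtraction of sub-grid medians, LYS20 (-0.79, 2.59 and -0.17) and LYS21 (-0.07, 2.34 and -0.47) had these signs as well. The share of all features was not counted in that setting. With sub-grid medians subtracted, 9 of the 9 were still highest on replicate 2. The probes lay in 8 of the 32 sub-grids, LYS1 and LYS2 sharing 1.

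**Figure D4:**
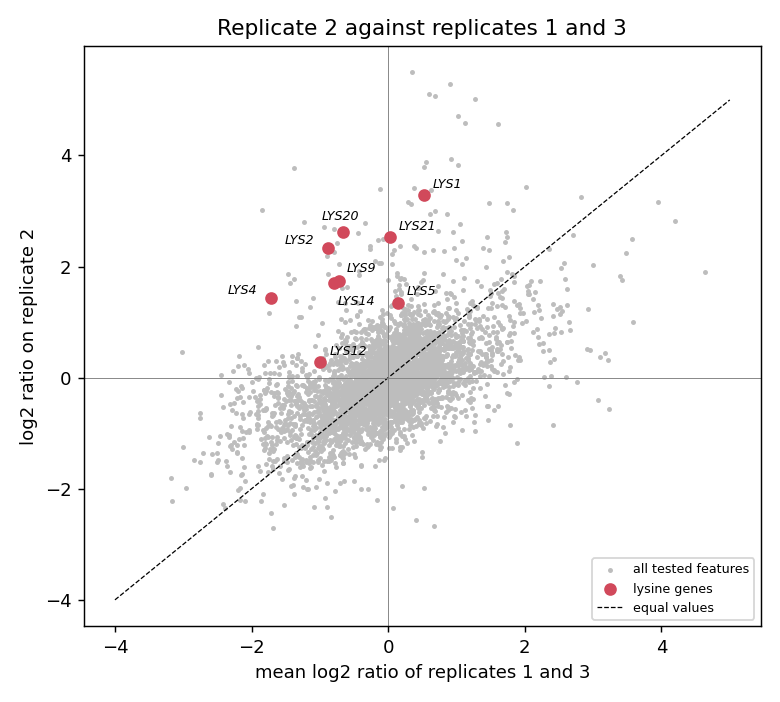
Log2 ratio on replicate 2 against the mean log2 ratio of replicates 1 and 3 for all tested features (grey) and the 9 lysine genes (red, named); the dashed line marks equal values. All 9 lie above the line, LYS5 and LYS12 nearest to it.

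The order of the genes within an array can be set beside this difference in level. Across the 9 genes, which share arrays and are not independent, Pearson's r was 0.71 between replicates 1 and 3, 0.45 between 1 and 2 and 0.57 between 2 and 3. The corresponding values across all 3802 features were 0.63, 0.51 and 0.43.

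A wider list of 23 genes of lysine metabolism covered enzymes, regulators, supply of 2-oxoacids, transport and use of lysine. It included CCS1, a copper chaperone gene once called LYS7, which is no enzyme of the pathway. All 23 had a value on every array. Of them, 1 fell, where 4.47% of all features did, and 0 rose, where 3.39% did (limma adjusted p under 0.05). An unadjusted p under 0.05 was found for 5, against 29.7% of all features, namely GDH1, ALP1, VBA1, VBA2 and VBA3. The calls were thus no more frequent than among all features. Highest on replicate 2 were 11 of the 23, as were 30.7% of all features.

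The gene that fell was GDH1 (YOR375C), the glutamate dehydrogenase that makes glutamate from 2-oxoglutarate. Its log2 ratios were -2.25, -0.98 and -1.90, below 0 on all arrays and closest to 0 on replicate 2. The mean was -1.71 ± 0.66 (limma adjusted p = 0.0311), and the call was lost without replicate 1 (adjusted p = 0.109) and without replicate 3 (adjusted p = 0.0839).

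Among the other enzymes, carriers and regulators, ARO8 and ODC2 were also above 2 on replicate 2 and below 0 on replicate 1. ARO8 (YGL202W), an aminotransferase that can form 2-aminoadipate, had log2 ratios of -0.87, 2.61 and -0.03 and a mean of 0.57 ± 1.81 (limma adjusted p = 0.570). ODC2 (YOR222W), a carrier that moves 2-oxoadipate out of mitochondria, had -0.78, 2.36 and 0.26 (mean 0.61 ± 1.60, limma adjusted p = 0.495). Each spanned more than 3 log2 units over the arrays, and neither passed.

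The 5 regulator genes ran over a smaller range than ARO8 and ODC2, and all but RTG2 were highest on replicate 2. RTG1 had log2 ratios of -0.08, 0.19 and -0.64, RTG2 had -1.65, -0.31 and -0.16, and RTG3 had 0.38, 1.54 and -0.001. GCN4 (YEL009C), whose activity is set mainly by translation, had log2 ratios of -1.04, 0.48 and -0.20, highest on replicate 2 (mean -0.25 ± 0.76, limma adjusted p = 0.657; 0.18 with sub-grid medians subtracted). MKS1 (YNL076W), a negative regulator of the retrograde pathway that supplies 2-oxoglutarate, had -0.03, 0.71 and 0.44 (mean 0.37 ± 0.37, limma adjusted p = 0.401).

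The 7 transport genes were mixed: LYP1, ALP1, VBA1 and VBA3 were lowest on replicate 2, and CAN1, VBA2 and YPQ1 were highest there. The share of all features lowest on replicate 2 was not counted, and 30.7% were highest there. LYP1 (YNL268W), the lysine permease gene, had log2 ratios of 0.29, 0.11 and 0.74, lowest on replicate 2 (mean 0.38 ± 0.32, limma adjusted p = 0.380). ALP1 (YNL270C), a basic amino acid permease gene, had 1.60, 0.43 and 1.23, above 0 on all arrays (mean 1.09 ± 0.60, limma adjusted p = 0.0747). VBA3 (YCL069W), a gene of the vacuolar basic amino acid transporter family, had 2.25, 0.52 and 3.57 (mean 2.11 ± 1.53, limma adjusted p = 0.0576). Without replicate 2 both ALP1 (1.42, limma adjusted p = 0.0129) and VBA3 (2.91, limma adjusted p = 5.99e-05) passed, in the fit that called 7.31% of all features as higher. That fit rests on replicates 1 and 3 alone. It drops the array on which both genes were lowest, so their means had to rise. On replicate 2, CAN1, VBA2 and YPQ1 had log2 ratios of 1.22, 0.97 and 0.15, and VBA1 had -1.36. Signal shared between VBA3 and its close copy VBA5 was not tested.

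The 7 supply genes were mixed, and GDH1, which was counted with them, uses 2-oxoglutarate rather than supplying it. Among them, the genes of the mitochondrial isocitrate dehydrogenase, which supplies 2-oxoglutarate, were described after their values were seen. IDH1 (YNL037C) had log2 ratios of 1.51, -0.76 and 1.40 (mean 0.72 ± 1.28, limma adjusted p = 0.344), and IDH2 (YOR136W) had 0.88, -0.41 and 0.51 (mean 0.33 ± 0.66, limma adjusted p = 0.540). Both were above 0 on replicates 1 and 3 and below 0 on replicate 2. For 5 of the 9 lysine genes all 3 signs were the opposite in the deposited values. The share of all features with the signs of IDH1 and IDH2 was not counted. None of the other supply genes had these signs. CIT1 had log2 ratios of -0.30, -0.25 and 0.99, ACO1 had 0.35, 0.06 and 1.24, and ODC1 had -0.06, 0.39 and 0.52. Without replicate 2 IDH1 passed at 1.45 (limma adjusted p = 0.0106), in that same fit with 7.31% of all features called as higher. The array left out was the one on which IDH1 was lowest, so its mean had to rise.

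**Figure D5:**
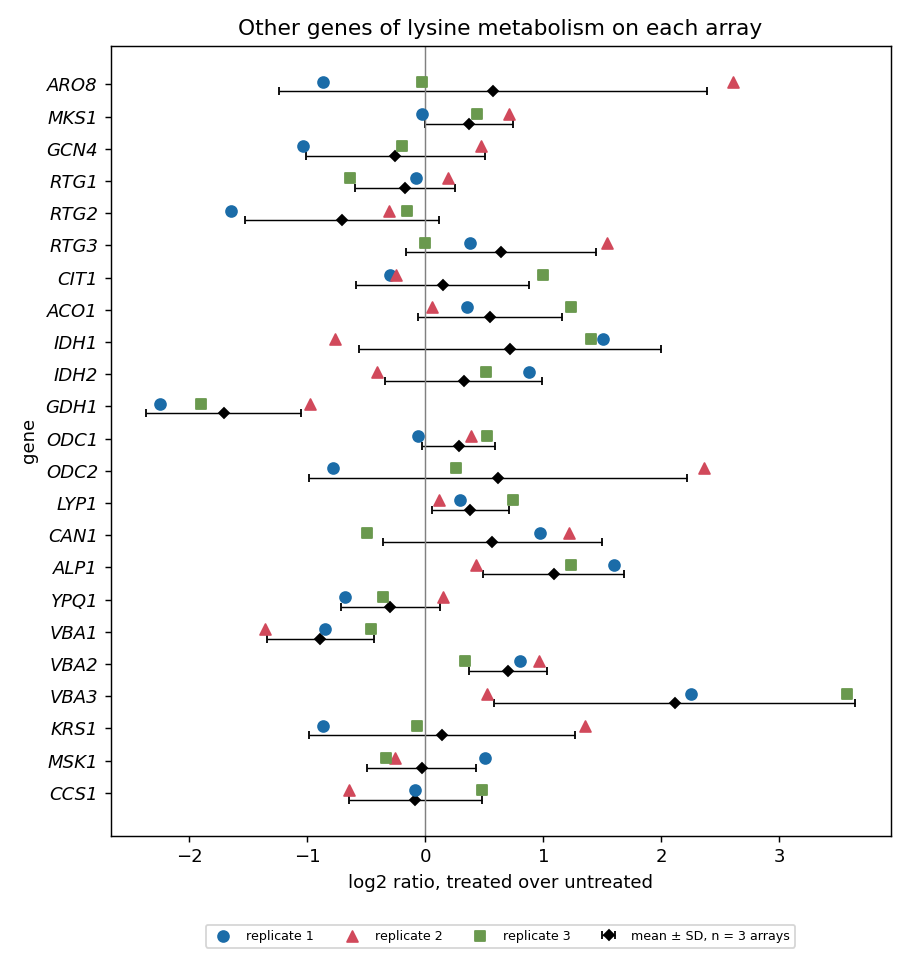
Log2 ratios of the 23 other genes of lysine metabolism on each array, with the mean and SD over the 3 arrays in black. ARO8 and ODC2 have the replicate 2 triangle far to the right. Of the transport genes, LYP1, ALP1, VBA1 and VBA3 have it to the left of the other arrays, and CAN1, VBA2 and YPQ1 to the right.

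Genes with a profile like that of the lysine group were ranked by the root mean square difference to the median profile of the 9 over the 3 arrays. The 6 nearest named genes were CMK2, a calmodulin-dependent kinase gene (difference 0.22), QDR3, a multidrug transporter gene (0.24), HIS7 of histidine synthesis (0.27), ILV6 of branched-chain amino acid synthesis (0.27), KRS1, the cytosolic lysyl-tRNA synthetase gene (0.28), and LEU9 of leucine synthesis (0.32). CMK2, the nearest, had log2 ratios of -1.27, 2.04 and -0.17. The median profile does not stand for every member: LYS9, whose values set it on replicates 2 and 3, lay at 0.042, the other members lay at 0.43 (LYS2) or further, and LYS1 lay furthest, at 1.42. Counted from the nearest of all 3802 features, LYS9 ranked 1, LYS2 11, LYS14 25, LYS20 27 and LYS21 98. LYS5 ranked 124, LYS4 150, LYS12 158 and LYS1 1975. Many features outside the group thus lay nearer to the profile than several members did. With sub-grid medians subtracted, 3 of these 6 stayed among the nearest 6.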

How the data were processed

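PolyA RNA was compared on 3 two-colour arrays. The authors deposited 1 table of log ratios, read here as log2 ratios of Cy5 (treated) over Cy3 (untreated). Spots with a flag value of 0 entered LOWESS normalization, per the labels; the sources used here name no scanner, background correction, log base or direction. Of 6272 probes, 5308 were named by the platform annotation; 4463, 5245 and 4865 had a value on replicates 1 to 3. Probes of a gene were averaged, and 3802 features with 3 values were tested by an intercept fit (lmFit, eBayes) in limma 3.58.1 (R 4.3.3), with Benjamini-Hochberg adjustment. The fit was tested on simulated data with values drawn independently for each feature and array. Shifts that genes share within an array were not simulated. Without intensities, signal over background is unknown, and the number of arrays limits precision. P-values rest on the spread between these arrays after eBayes drew each gene's variance toward a value common to all features. The prior had 5.10 degrees of freedom. For genes with a larger spread than that value, such moderation lowers the standard error. The median SD was 1.48 for the lysine genes and 0.46 for all features.

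Members and lists were chosen with earlier results of these data known. Named were all 9 members; of the wider list, genes past the threshold or of 1 sign throughout with an absolute mean of at least 1, and ARO8, MKS1, GCN4 and LYP1; and the 6 nearest profiles. ODC1, ODC2, CIT1, ACO1, IDH1, IDH2, RTG1, RTG2, RTG3, CAN1, YPQ1, VBA1 and VBA2 were named after their values were seen. One item fixed in that list is not reported here. Alternatives were array centring, common spread, quantile normalization, sub-grid medians, array weights, robust or no moderation, the first probe, values on at least 2 arrays, stricter thresholds and each array left out.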

Additional observations from a re-analysis of the deposited data

How the results depend on the processing

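The count of 0 lysine genes past the threshold became 1, LYS4, without replicate 2. It was 0 under the other alternatives, and the range over the arrays left out was 0 to 1. The stricter thresholds could not have raised it. The first listed probe left each lysine log2 ratio as it was, as each of these genes had 1 probe. The median of the lysine means was 0.19, ran from 0.17 to 0.46 under the other settings and from -0.71 to 0.73 over the arrays left out. Leaving out 1 array gave -0.66 to 1.32 for LYS20, -1.72 to 0.014 for LYS4, -0.89 to 0.83 for LYS2, -0.71 to 0.73 for LYS9, -0.80 to 0.58 for LYS14, 0.52 to 2.01 for LYS1, 0.026 to 1.29 for LYS21, 0.14 to 0.82 for LYS5, -0.99 to -0.22 for LYS12, -0.45 to 1.29 for ARO8 and -0.62 to 0.14 for GCN4. LYS20 minus LYS21 was -0.68 to 0.027 over the arrays left out. With sub-grid medians subtracted, LYS9 was at -0.030 and GCN4 at 0.18, with signs opposite to those of the deposited values; the cause was not tested. Of the wider list, 1 gene passed. It was 2 with array medians subtracted, a common spread, quantile normalization, sub-grid medians or robust moderation, where VBA3 passed as well as GDH1. The limma adjusted p of VBA3 was 0.0332 with quantile normalization and 0.0436 to 0.04997 in the others of these settings. In the main fit it was 0.0576. The count of the wider list was 0 with no moderation, and 0 to 4 over the arrays left out. Treated and untreated RNA are already paired within each array by the ratio, so no further replicate block was fitted.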

Other observations

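Other amino acid pathways were high on replicate 2 as well. The 4 arginine synthesis genes with a value on all arrays, of 6 on the array, had median log2 ratios of 0.39, 2.30 and 0.17 on replicates 1 to 3. The 5 histidine synthesis genes, of 6, had -1.05, 1.87 and -0.71. The 10 genes of leucine, isoleucine and valine synthesis, of 11, had -0.94, 1.27 and -0.74. Highest on replicate 2 were 4 of the 4, 5 of the 5 and 9 of the 10, beside 30.7% of all features. Differences between these pathways and lysine synthesis were not tested.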
